A study of Danio rerio with 12 samples.

Results

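The period genes and the casein kinase 1 genes of the delta and epsilon type were followed on 12 Affymetrix arrays of the zebrafish pineal gland. The members are all probe-sets that the platform's annotation pairs with per1a, per1b, per2, per3, csnk1da, csnk1db or csnk1e. Of these 7 genes, 5 had a probe-set. No probe-set carried the name of per1a or per1b, which are therefore not analysed here. The members were 7 of the 15502 probe-sets other than controls. Genes per2 and csnk1da had 2 probe-sets each, called the brighter and the dimmer one below, and per3, csnk1db and csnk1e had 1 each.

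Every array held RNA of a pool of 12 pineal glands from adult fish of both sexes, 0.5 to 1.5 years old, of the line Tg(aanat2:EGFP)Y8. In this line green fluorescent protein is made under the regulatory regions of aanat2, the melatonin rhythm enzyme, so that the gland can be seen during dissection. The fish were reared with 12 h of light a day, and sampling took place in constant darkness. Glands were collected every 4 h over 48 h, at circadian times (CT) 14, 18, 22, 2, 6 and 10 of a first and then of a second daily cycle. Each circadian time thus has 2 arrays, 1 per cycle (replicates 1 and 2), and their difference joins the spread between pools, days and hybridizations. All groups share the transgene and the constant darkness, and no array of fish in light was analysed here. Since whole glands were pooled, a change in RNA per cell and a change in the number of cells of a type cannot be told apart.

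Period proteins are the slow repressors of the vertebrate clock: together with cryptochromes they block the CLOCK and BMAL activators that drive their own genes. Casein kinase 1 delta and epsilon bind period proteins and phosphorylate them, which sets when the repressors are degraded by the ubiquitin-proteasome system and so how long a cycle lasts. In zebrafish per2 is also induced directly by light, and the pineal gland holds its own light-sensitive clock that times melatonin production.

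Pineal markers were measured on all arrays, with differences between libraries in them and in markers of other tissues. Of 13 pineal photoreceptor markers, 12 had a probe-set, and the normalized intensity of rbp4l ran from 5376 to 12512, that of crx from 1633 to 4258 and that of exorh from 696 to 2193. aanat2, whose transcript is known to rise at night, peaked at CT14.6 (standard error 0.581 h, fitted fold 6.40, adjusted p = 0.026 from limma). It already read 2005 and 1289 at CT10, in the subjective day, beside 2257 and 2668 at CT14. Circadian times are those of the deposited labels. The study's own curve of another gene runs later than these labels do by the length of the sampling interval. Peak times and the words subjective night and day below therefore hold for the labels only. CT6 replicate 2 correlated least with the rest (mean r = 0.814, against 0.865 to 0.907). On it 7 of 9 skin markers, 7 of 7 bone and connective tissue markers and 6 of 7 immune markers had their highest value, and the lists averaged 2.25, 2.98 and 1.71 above their 12-array means on the log2 scale. The pineal photoreceptor and blood lists had their lowest average on the same array (-0.66 and -1.12). On CT18 replicate 2 the brain list had its highest average (1.22) and the skin list its lowest (-1.64). Hybridization controls had a geometric mean of 837 to 1314 on the last 4 arrays and of 515 to 728 on the 8 before. Below, values of the member probe-sets without such an array are given where they change beyond set bounds. These are a fold or g-factor moved by over 1.5 times, a peak moved by more than its standard error, or a changed call. For the other genes named below no such values are given, so whether their calls hold without these arrays is not known here.

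A single member gene, csnk1db, had a 24-h rhythm that passed the test across all probe-sets. The test was a 24-h cosine fitted by limma to quantile-normalized log2 intensities, with Benjamini-Hochberg adjustment over the 11624 probe-sets whose highest value was not among the lowest 25%. Of the 7 member probe-sets, 6 passed that filter and 1 of the 6 passed the test, where 60 of the 11624 did so (0.516%). By Fourier analysis, which scores each profile by its g-factor, the share of its power at the 24 h period, 1 of the 6 was in the list at a true-positive rate of 90%, where 56 of the 11624 were (0.482%). It was again csnk1db. The g-factors of the 6 ran from 0.073 to 0.882, and the median of all probe-sets tested was 0.191.

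**Figure D1:**
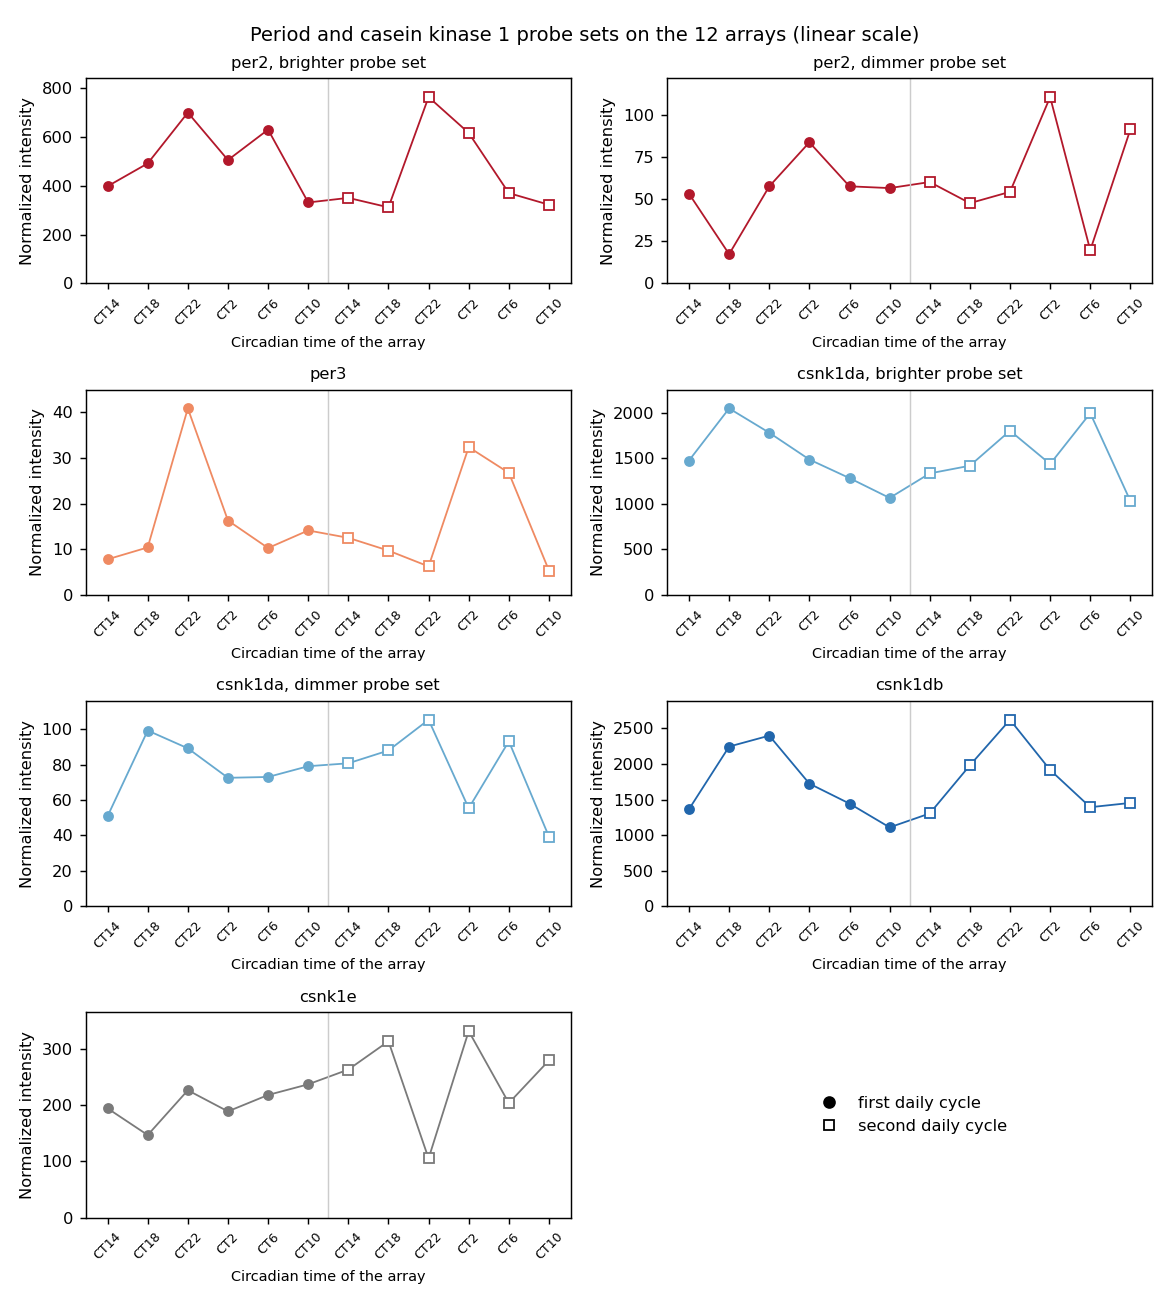
Normalized intensity (linear scale, vertical axis from 0) of the 7 member probe-sets on each of the 12 arrays, in order of sampling, each point being 1 pool of 12 glands (filled, first daily cycle; open, second). csnk1db was highest at CT22 in both cycles, at 2399 and 2622, while the per3 probe-set stayed between 5.33 and 40.8.

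Among the period genes, per2, a repressor that in zebrafish responds to light, was highest at the end of the subjective night on its brighter probe-set. Its normalized intensities in the order of sampling were 397, 491, 698, 505, 629 and 331 in the first cycle and 350, 311, 762, 615, 369 and 322 in the second. The CT22 arrays were the highest of all 12, and they overlapped with no other time. By mean, the times ran in the order CT22 (730 ± 44.9, SD, n = 2), CT2 (560 ± 78.3), CT6 (499 ± 183), CT18 (401 ± 127), CT14 (374 ± 33.6) and CT10 (326 ± 6.54). From CT2 to CT14 each time overlapped with its neighbours in that order, whereas both CT10 arrays lay below both CT14 arrays. The fitted curve rose 2.01-fold from trough to peak (95% interval 1.35 to 2.98) with its peak at CT0.03 (standard error 0.962 h). Its g-factor of 0.628 was the 362nd of 11624, above that of 96.9% of the probe-sets tested. The rhythm did not pass after adjustment (adjusted p = 0.258 from limma), and with each array left out in turn the adjusted p ran from 0.139 (without CT6 replicate 2) to 0.473 (without CT14 replicate 2). The lowest value of the 12 arrays was that of CT18 replicate 2, on which the brain markers were high and the skin markers low; without it the g-factor was 0.767 and the adjusted p 0.185, and the part of these markers was not tested. Without the last 4 arrays the peak lay at CT1.31.

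The second probe-set of per2 was dim and followed another course. It ranged from 17.4 at CT18 replicate 1 to 111 at CT2 replicate 2. The arrays of a circadian time differed on it by a mean of 0.73 on the log2 scale, against 0.34 for the brighter probe-set. Both CT2 arrays (83.8 and 111) were high, and the lowest values came from a single array of CT18 (17.4) and of CT6 (19.8), whose partners read 47.7 and 57.7. Its fitted fold was 1.49 (95% interval 0.573 to 3.89), its g-factor 0.073 and its adjusted p 0.878 from limma. Without CT6 replicate 2, one of its lowest arrays, the fold was 2.46, the g-factor 0.441 and the adjusted p 0.412 from limma. Without CT2 replicate 2, its highest array, the g-factor was 0.033. Without CT18 replicate 1 the g-factor was 0.021 and the peak moved from CT4.41 to CT22.9. The log2 intensities of the per2 probe-sets correlated over the 12 arrays with r = 0.135 (rho = 0.126, permutation p = 0.670 and 0.699, adjusted over 8 pairs 0.670 and 0.699), and with r = 0.137 without both CT22 arrays, the farthest from the median of the brighter one. Within the cycles r was 0.051 and 0.247 (exact p = 0.958 and 0.650, n = 6 arrays).

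per3, a period repressor of the same family, was near the bottom of the array's range. Its probe-set read 7.78, 10.4, 40.8, 16.3, 10.3 and 14.1 in the order of sampling in the first cycle and 12.5, 9.69, 6.23, 32.4, 26.7 and 5.33 in the second. The highest value belonged to CT22 of the first cycle and one of the lowest to CT22 of the second, a 6.56-fold difference within that circadian time. Its highest value lay below the filter's threshold of 63.9 and above the highest value of just 11.8% of all probe-sets, so per3 did not enter the main test. In a fit with no filter its fold was 2.55 (95% interval 0.854 to 7.61), with a peak at CT1.74 and an adjusted p of 0.699 from limma. The arrays of a time differed by a mean of 1.21 on the log2 scale, close to the fitted log2 difference of 1.35 between peak and trough. The deposited table holds no detection calls, so that it is not known which of these values exceed background.

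**Figure D2:**
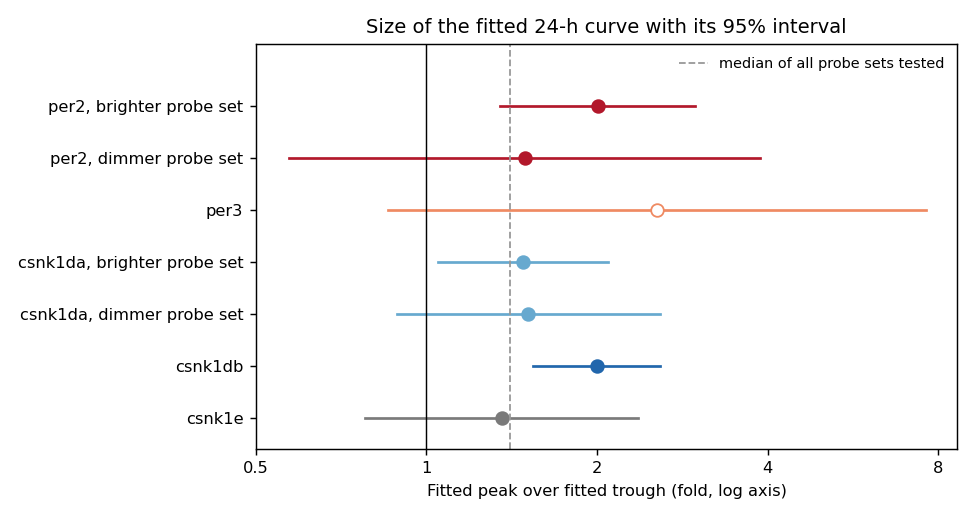
Fitted peak over fitted trough of the 24-h curve for each member probe-set (points; log axis, fold) with the 95% interval of limma's fit (lines); the open point is per3, fitted with no filter, and the dashed line is the median of 1.40 over all probe-sets tested. The intervals use limma's standard error with 9 degrees of freedom, are symmetric on the log2 scale and can reach below 1. A fitted peak is never below its trough, so a lower end above 1 is no test of a rhythm. csnk1db (1.54 to 2.59) has the narrowest.

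csnk1db, which encodes a delta kinase, had the most regular profile of the members. Its normalized intensities in the order of sampling were 1365, 2245, 2399, 1724, 1443 and 1109 in the first cycle and 1305, 1981, 2622, 1916, 1392 and 1453 in the second. In both cycles it rose through the subjective night to CT22 and fell from there to CT6. By mean, the order was CT22 (2511 ± 158, SD, n = 2), CT18 (2113 ± 187), CT2 (1820 ± 136), CT6 (1418 ± 35.9), CT14 (1335 ± 42.3) and CT10 (1281 ± 243). No neighbours in this order overlapped down to CT14, and the CT10 arrays, at 1109 and 1453, spanned both the CT14 and the CT6 values. The arrays of a time differed by a mean of 0.16 on the log2 scale.

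The fitted csnk1db curve rose 2.00-fold (95% interval 1.54 to 2.59) and peaked at CT21.7 (standard error 0.632 h), with an adjusted p of 0.039 from limma. Fitted folds past the test ran from 1.92 to 33.9 with a median of 3.80, so that csnk1db lay near the low end of the sizes called. Its g-factor of 0.882 was the 13th of 11624, while its p was the 39th. The cycles taken alone gave folds of 2.12 with a peak at CT21.4 and 1.90 with a peak at CT22.1.

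The limma call of csnk1db was close to its threshold. With each array left out in turn it was kept in 2 of 12 fits, those without CT6 replicate 2 (adjusted p = 0.022) and without CT10 replicate 2, and the highest adjusted p was 0.160 (without CT10 replicate 1). Across these 12 fits the fold stayed between 1.92 and 2.17 and the peak between CT21.5 and CT22.0. It was also lost with median centring (adjusted p = 0.101, peak at CT20.8), with circadian time as a factor of 6 levels (0.514), with 12-h terms added to the test (0.225), with a linear trend over the 48 h (0.053) and without limma's variance trend (0.105). The call was kept in the other 8 of 13 alternatives, among them the fit without the last 4 arrays (adjusted p = 0.040, fold 2.10). The looser false discovery rate, also among these 8, could not lose the call, since it changes only the threshold. csnk1db was in the Fourier list under 8 of 8 alternatives to that analysis that kept all arrays, and in 8 of 12 with an array left out, the exceptions being those without CT18 replicate 1, CT22 replicate 1, CT10 replicate 1 or CT18 replicate 2. Among the former, the looser true-positive rate could not remove csnk1db, since it only lowers the g-factor at which the list begins.

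**Figure D3:**
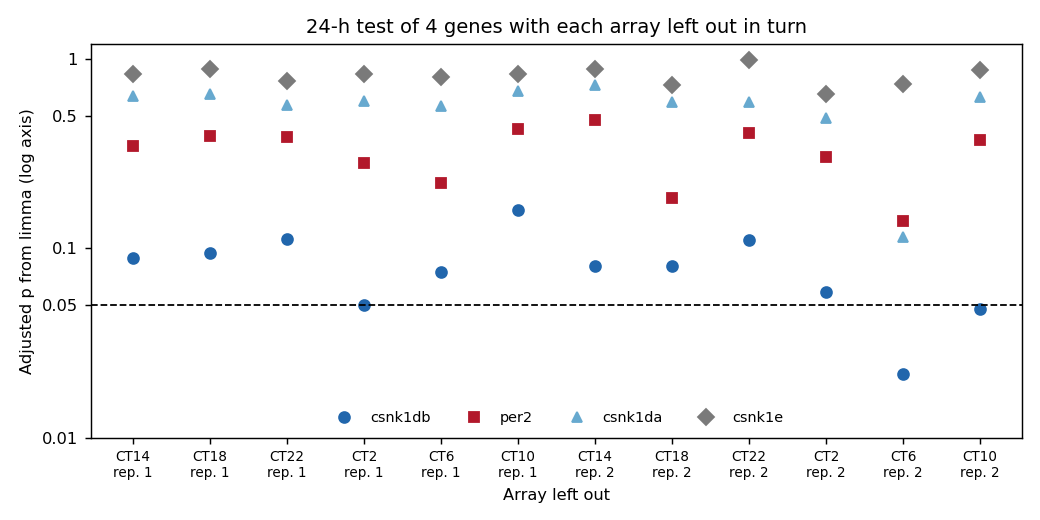
Adjusted p from limma (log axis) of the 24-h test for csnk1db, per2, csnk1da and csnk1e, by the brighter probe-set of each gene, when the array named on the horizontal axis is left out; the dashed line is the threshold of 0.05. csnk1db lies below the line in 2 of 12 fits and reaches 0.160, and no fit puts per2, csnk1da or csnk1e below it.

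csnk1da, the other zebrafish casein kinase 1 delta gene, had its lowest values at CT10 on its brighter probe-set and no rhythm that passed the test. The brighter probe-set read 1474, 2046, 1780, 1485, 1281 and 1064 in the order of sampling in the first cycle and 1333, 1417, 1801, 1436, 1994 and 1030.1 in the second. Both CT10 arrays lay below all 10 others, and in the first cycle the profile fell from CT18 to CT10, whereas that of csnk1db rose once more to CT22 before it fell. In the second cycle CT6 was the highest array, at 1994 against 1281 at CT6 of the first, and this is the array on which the skin, connective tissue and immune markers were high; their part in this value was not tested. By mean, the order was CT22 (1790 ± 15.3, SD, n = 2), CT18 (1732 ± 445), CT6 (1638 ± 504), CT2 (1461 ± 34.8), CT14 (1404 ± 99.97) and CT10 (1047 ± 23.6), and all neighbours but CT14 and CT10 overlapped.

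The fitted csnk1da curve had a fold of 1.48 (95% interval 1.05 to 2.09), a peak at CT21.9 (standard error 1.49 h) and a g-factor of 0.428. Its unadjusted p was 0.068 and its adjusted p 0.527 from limma, so the interval's lower end above 1 is no evidence of a rhythm. Without CT6 replicate 2 the g-factor was 0.789, just under the 0.802 at which the Fourier list of that refit began. The adjusted p from limma was then 0.115, the lowest that any of the 5 probe-sets other than csnk1db reached in 123 settings. With the other arrays left out in turn the adjusted p of csnk1da reached 0.728. The second csnk1da probe-set was dimmer, from 39.3 at CT10 replicate 2 to 105 at CT22 replicate 2, with a fold of 1.51, a peak at CT21.3, a g-factor of 0.266 and an adjusted p of 0.687, the g-factor being 0.413 once CT6 replicate 2 was left out and 0.125 once CT10 replicate 2 was. On it too CT18, CT22 and CT6 replicate 2 were high (88.1 and 99.4, 89.3 and 105, and 93.3). CT10 had the lowest mean here as well (59.3 ± 28.2, SD, n = 2), but its arrays parted. CT10 replicate 1 read 79.2, above both CT2 arrays (72.6 and 55.4). The csnk1da probe-sets correlated with r = 0.650 (rho = 0.671, permutation p = 0.021 and 0.020, adjusted over 8 pairs 0.076 and 0.078). Without CT10 replicate 2 and CT18 replicate 1, the farthest from the median of the brighter one, r was 0.385. Leaving out such extreme arrays can lower r by itself. Without CT10 replicate 1 r was 0.770 (adjusted permutation p = 0.041). No other omission of a single array brought this pair past the threshold, and the adjustment did not cover the choice of array. Within the cycles r was 0.414 and 0.823 (exact p = 0.421 and 0.047, n = 6 arrays).

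csnk1e, which encodes the epsilon kinase, followed no daily course that could be told from the spread of its arrays. Its probe-set ranged from 105 at CT22 replicate 2 to 332 at CT2 replicate 2. The other CT22 array read 226, and the CT18 arrays read 147 and 313, so that the arrays of a time differed by a mean of 0.63 on the log2 scale. The fold was 1.36 (95% interval 0.778 to 2.37), the g-factor 0.123 and the adjusted p 0.809 from limma. The g-factor turned on single arrays, with 0.284 without CT18 replicate 2, 0.267 without CT2 replicate 2 and 0.011 without CT22 replicate 2, and the adjusted p then was 0.729, 0.649 and 0.982. Its fitted peak moved from CT9.39 (standard error 3.07 h) to CT12.5 without the last 4 arrays.

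**Figure D4:**
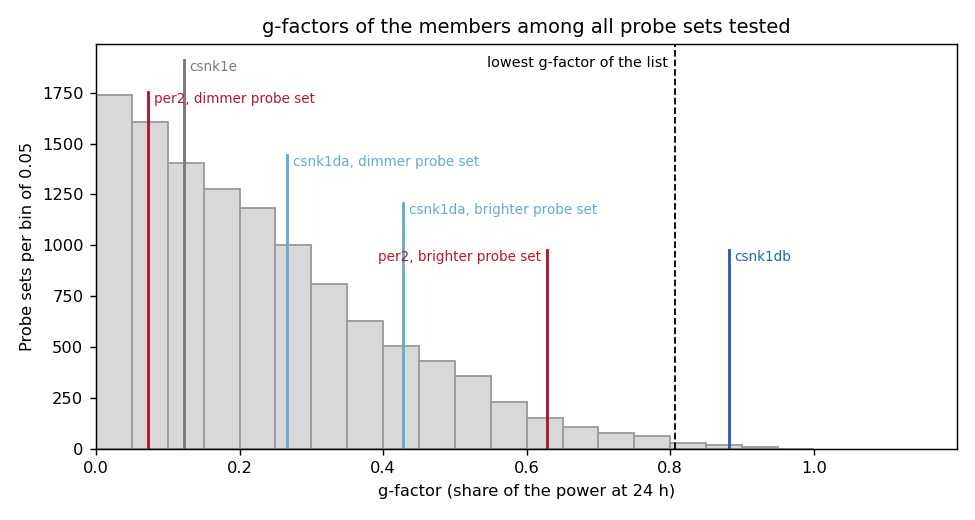
Number of probe-sets (vertical axis, bins of 0.05) by g-factor, the share of the power at 24 h (horizontal axis), for the 11624 probe-sets tested; coloured lines mark the 6 member probe-sets that passed the filter, and their heights carry no value. The dashed line is the lowest g-factor of the Fourier list, 0.807, and csnk1db (0.882) is the member beyond it.

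Whether the members differed from each other over the day was asked on each array, by fitting a 24-h curve to the log2 difference of a pair. Of 8 pairs (6 of different genes, by the brighter probe-set of each, and 2 of the probe-sets of a gene) none passed after adjustment. The lowest value belonged to csnk1db and csnk1e (24-h share 0.542, permutation test with 100000 orders, one-sided, p = 0.019, adjusted p = 0.150), with a fitted log2 difference of 1.44 between peak and trough of their ratio. For csnk1db and csnk1da the adjusted p was 0.341, with fitted peaks that lay 0.156 h apart (standard error 1.62 h). For per2 and csnk1db it was 0.258, and the per2 peak was the later by 2.31 h (standard error 1.15 h, as if the fits were independent). These values leave room for differences as well as for none.

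In log2 intensity across the 12 arrays, csnk1db varied with both csnk1da and per2, short of the threshold after adjustment. The permutations mixed the arrays regardless of circadian time, so a shared 24-h course by itself can give such an r and p. For per2 and csnk1db r was 0.670 (rho = 0.531, permutation p = 0.020 and 0.080, adjusted over 8 pairs 0.076 and 0.148). It was 0.391 without both CT22 arrays, the farthest from the median of per2. Leaving out such extreme arrays can lower r by itself. Without CT18 replicate 2 r was 0.814 (adjusted permutation p = 0.028). Within the cycles r was 0.712 and 0.738 (exact p = 0.114 and 0.107, n = 6 arrays). For csnk1da and csnk1db r was 0.632 (rho = 0.538, permutation p = 0.029 and 0.074, adjusted 0.076 and 0.148), and 0.587 without CT10 replicate 2 and CT18 replicate 1. Here the cycles differed in size: r was 0.922 in the first and 0.322 in the second (exact p = 0.015 and 0.531, n = 6 arrays). Without CT6 replicate 2 r was 0.822 over 11 arrays (adjusted permutation p = 0.017). For both of these pairs no other omission of a single array passed the threshold, and the adjustment did not cover the choice of array. csnk1e had a negative r with each of the other genes over the 12 arrays, none of them past the threshold after adjustment. The values were -0.574 with csnk1da (rho = -0.671, adjusted permutation p = 0.098 and 0.078), -0.477 with per2 (rho = -0.503, adjusted 0.181 and 0.148) and -0.411 with csnk1db (rho = -0.238, adjusted 0.212 and 0.522). Without the pair of arrays farthest from the median these were -0.438, -0.230 and -0.083. per2 and csnk1da had r = 0.458 (rho = 0.490, adjusted permutation p = 0.181 and 0.148), and 0.277 without both CT22 arrays. Within the first and second cycle r was -0.723 and -0.599 for csnk1da and csnk1e, 0.013 and -0.599 for per2 and csnk1e, -0.479 and -0.509 for csnk1db and csnk1e, and 0.497 and 0.448 for per2 and csnk1da.

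**Figure D5:**
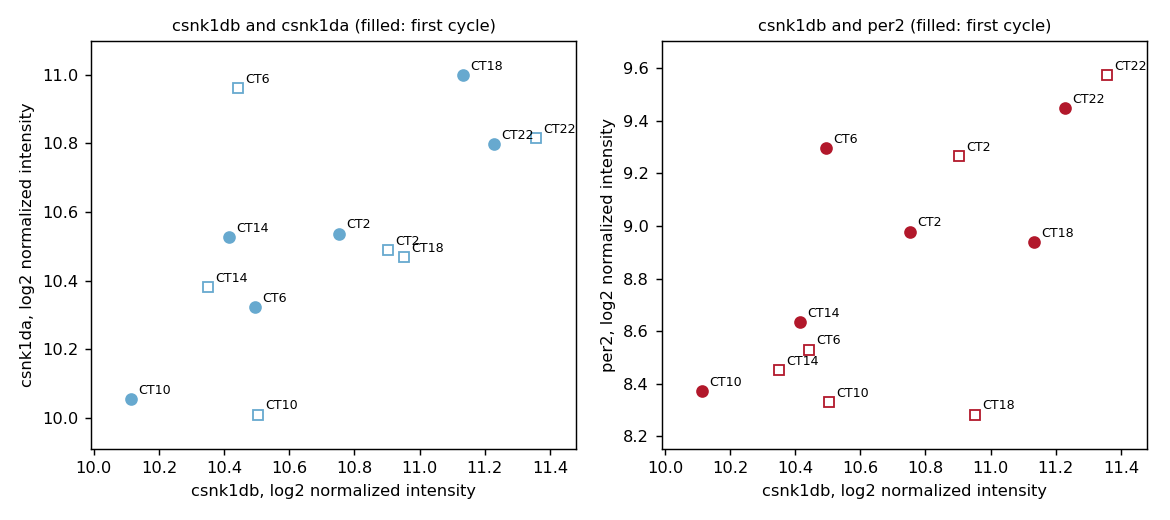
log2 normalized intensity of csnk1da (left) and per2 (right) against that of csnk1db on the 12 arrays, labelled by circadian time (filled, first daily cycle; open, second). On the left the CT6 array of the second cycle stands apart, with csnk1da high (1994) and csnk1db low (1392), and r over all arrays was 0.632; on the right both CT22 arrays lie at the upper end, and r was 0.670.

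The second day in darkness was compared with the first to ask whether levels or amplitudes changed. No member passed the test for a difference in level, and neither did any other probe-set: 0 of 11624 passed limma (0%), 832 had an unadjusted p under 0.05, and the lowest adjusted p was 0.627. The log2 difference of the second cycle from the first was -0.21 ± 0.18 (standard error) for per2, 0.06 ± 0.12 for csnk1db, -0.02 ± 0.16 for csnk1da and 0.23 ± 0.25 for csnk1e. Among all probe-sets tested the median size of this difference was 0.18, so the members lay in the usual range. The amplitude of the log2 curve was compared by exchanging the arrays of each circadian time between the cycles, which allows 64 exchanges and a smallest two-sided p of 0.031. For csnk1db (folds 2.12 and 1.90) the exact p was 0.781, for csnk1da 0.438 (folds 1.76 and 1.45) and for csnk1e 0.563 (folds 1.31 and 1.56). For per2 the brighter probe-set went from a fold of 1.77 to 2.28 and the dim one from 2.67 to 1.24, each with the exact p of 0.031, in opposite directions. Over the 6 such tests made, the Benjamini-Hochberg value of both was 0.094, and with median centring their exact p became 0.656 and 0.125.

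Other genes that act on or with period proteins were taken from lists of the pathway. Since 0.516% of the 11624 probe-sets tested passed the 24-h test, a short list without a call is not set apart from the rest. None of 3 other casein kinase 1 genes measured passed the 24-h test, with csnk1a1, csnk1g2a and csnk1g2b at fitted folds of 1.18, 1.29 and 1.21 (adjusted p from 0.785 to 0.796 from limma); the list's median g-factor was 0.215, beside 0.191 over all probe-sets. None of 14 other kinases and phosphatases known to act on clock proteins passed either. Their median fold was 1.24, beside 1.40 over all probe-sets tested, and their median g-factor 0.163, beside 0.191. The list takes the brightest probe-set of each gene and the whole includes dim ones, so these folds are not compared on equal terms. The lowest p were those of gsk3ab, a glycogen synthase kinase 3 gene (fold 1.44), and of the phosphatase catalytic subunits ppp1cb (fold 1.45) and ppp2cb (fold 1.44), with adjusted p of 0.544, 0.606 and 0.611 from limma.

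Of 7 subunits of the ubiquitin ligases that recognise period and cryptochrome proteins, 2 passed, beside 60 of the 11624 probe-sets tested (0.516%). The lists here and below were chosen with earlier results of these data known and take the brightest probe-set of each gene. Their shares are therefore not compared with the whole on equal terms. Both ligase genes past the test had fitted peaks in the later subjective day. fbxl3a, whose F-box protein recognises cryptochromes, rose 2.31-fold with a peak at CT8.81 (adjusted p = 0.028), and cul1b, a scaffold of these ligases, 2.45-fold with a peak at CT9.86 (adjusted p = 0.040). The adjusted p of cul1b was no lower than that of csnk1db (0.039 from limma), whose call was lost in 10 of 12 fits with an array left out. The F-box genes that recognise phosphorylated period proteins, fbxw11a and fbxw11b, did not pass (folds 1.13 and 1.45, adjusted p = 0.918 and 0.608).

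The partners and drivers of the period genes passed the 24-h test in part, beside 0.516% of all probe-sets tested. Of 4 cryptochrome genes tested by their brightest probe-set none passed, with folds of 2.29 for cry2, 2.97 for cry1b and 2.02 for cry4 (adjusted p = 0.225, 0.296 and 0.676). Another probe-set of cry2 did pass (fold 5.73, peak CT20.2, adjusted p = 0.0063). Of 6 activator genes of the BMAL and CLOCK type, bmal1a passed (fold 10.7, peak CT7.57, adjusted p = 0.026 from limma). Its highest value, 200, was that of CT6 replicate 2, on which the skin, connective tissue and immune markers were high. Its lowest was 11.8, below the filter's threshold of 63.9. The part of that array in the bmal1a call was not tested. Of 4 D-box factors, nfil3-5 and nfil3-6, which encode repressors, passed with folds of 33.9 and 4.13 and peaks at CT7.57 and CT23.5 (adjusted p = 0.0012 and 0.026). The D-box list too had its highest average on CT6 replicate 2 (0.62 on the log2 scale). There nfil3-5 and nfil3-6 read 1908 and 655, below their highest values of 3813 and 2148. The activators' median fold was 3.06 and that of the D-box factors 3.17. A fold of this size alone was no sign of a rhythm. bmal2 and clocka had folds of 3.09 each and did not pass (adjusted p = 0.574 and 0.443 from limma). The skin marker list had a median fold of 3.19 without a call.

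Beside per2, other zebrafish genes known to respond to light showed no called rhythm in this darkness. Of 5 tested none passed, where 0.516% of all 11624 probe-sets did, so the count does not set these genes apart. Their median fold was 1.70. The tefa curve had a g-factor of 0.578 and an unadjusted p of 0.0065 from limma, near those of the brighter per2 probe-set (0.628 and 0.0052). The lowest p belonged to tefa (fold 2.20, peak CT19.9, adjusted p = 0.288), which encodes a D-box activator, neil1, a DNA repair gene (fold 1.70, peak CT23.6, adjusted p = 0.564), and cry5, which encodes a photolyase (fold 1.96, peak CT4.19, adjusted p = 0.581).

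Genes whose profile was most like that of a member were found by Pearson's r over the 12 arrays. About 8290 probe-sets with 1 gene symbol were compared. The values describe these arrays and carry no test. Genes chosen in this way tend to peak near their member, so neither their peaks nor their calls are separate results. Nearest to csnk1db were hsf2, a heat shock factor (r = 0.910), zgc:65895 (0.904), znf395b (0.897), bco2a, a carotenoid-cleaving enzyme (0.889), and sh3gl2a, an endophilin (0.883). All 5 peaked between CT21.2 and CT21.8 and had larger folds than csnk1db, from 2.52 for znf395b to 4.71 for sh3gl2a. Of them hsf2, zgc:65895 and sh3gl2a passed the 24-h test (adjusted p = 0.023, 0.028 and 0.0013 from limma), where 0.516% of all probe-sets tested did. Nearest to per2 were cetn4, a centrin (r = 0.887), chid1 (0.869), zc3h18 (0.866), nectin3b (0.864) and rbp3, a retinoid-binding protein of photoreceptors (0.862). They peaked from CT22.5 (nectin3b) to CT1.36 (zc3h18), and none passed the test (lowest adjusted p 0.073, rbp3).

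Nearest to csnk1da were osbpl7 (r = 0.925), mapk12a (0.902), arhgap29b (0.858), itm2cb (0.835) and ivns1abpb (0.826), with peaks from CT20.0 to CT21.8 and no call (lowest adjusted p 0.398, osbpl7). To its second probe-set they were trmt11 (0.872), hspa1b (0.830), vcp (0.829), znf622 (0.819) and kdm4c (0.805). The dim per2 probe-set had ift57 (0.940), setdb1b (0.901), atp6ap1la (0.884), rnf10 (0.861) and wbp4 (0.858). csnk1e had trappc11 (0.908), zgc:112266 (0.903), marcksl1b (0.887), gdf3 (0.873) and tspan2a (0.867), none of which passed the 24-h test (lowest adjusted p 0.628, zgc:112266).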

How the data were processed

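RNA of 12 pools of pineal glands was amplified in 2 rounds, labelled and hybridized to Affymetrix zebrafish arrays, and the values as deposited by the authors are linear signal intensities in 1 table, each array having been scaled with the GCOS software by the Methods (the submitters' processing notes also name MAS5, and no version is given). The table holds 15502 probe-sets and 115 control probe-sets, without detection calls or scanner files, so that the background of a probe-set is not known and the number of arrays limits the precision.

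The log2 of the intensities was quantile-normalized over all rows (limma 3.58.1, R 4.3.3). Controls were then dropped, as were the 25% of probe-sets with the lowest maxima, and 11624 were tested. A 24-h cosine and sine were fitted to all 12 arrays (9 residual degrees of freedom, eBayes with a variance trend), with Benjamini-Hochberg adjustment of limma's moderated F test over all probe-sets tested. Fitted folds divide the peak of the curve by its trough. The Fourier list rests on 1000 shuffles of each profile, and the lists of the alternatives on 100. Replicate numbers stand for the daily cycles, that is for the day of collection, by the series' description. Differences between the cycles correlated with r from -0.299 to 0.225 over 15 pairs of circadian times, 5 of them above 0.1, and the fit with the cycle as a block is an alternative. P-values from limma rest on the spread of single arrays about the fitted curve. This joins pools, days, hybridizations and any departure from a cosine.

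Genes were paired with probe-sets by the platform's annotation (1 symbol for 10795 probe-sets, several for 135, none for 4572), and the brighter probe-set of a gene is that with the highest mean. Named genes are the members, the 5 genes most like each member probe-set tested, and from each pathway list the genes past the test or otherwise up to 3 with the lowest p. fbxw11a and fbxw11b, the cry2 probe-set past the test and the markers in the account of the arrays were named after their values were seen. The members and lists were chosen with earlier results of these data known. The fits were also run on simulated data with independent noise on every probe-set. Such data hold no shift shared by many probe-sets of an array, so they say nothing about the arrays that differed in tissue markers.

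The alternatives were no further normalization, median centring, no filter or one at 50%, linear intensities, 32 added before taking log2, the arrays left out 1 by 1, the last 4 arrays left out, a linear trend, the daily cycle as a block, circadian time as a factor, 12-h terms, a false discovery rate of 0.10, no variance trend, and true-positive rates of 85% and 95%.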

Additional observations from a re-analysis of the deposited data

Results flagged for a closer look

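The amplitude of the per2 curve gave the smallest attainable p for a difference between the daily cycles on both of its probe-sets, in opposite directions, and did not pass after adjustment. On the brighter probe-set the log2 ratio of the amplitude in the second cycle to that in the first was 0.53, with fitted folds of 1.77 and 2.28. On the dimmer probe-set it was -2.17, with folds of 2.67 and 1.24. Both gave the smallest p of the exact permutation test (0.031, two-sided, 6 arrays per cycle), and over the 6 member probe-sets tested the Benjamini-Hochberg value was 0.094. The amplitudes of csnk1db, csnk1da and csnk1e had exact p from 0.438 to 0.781. The arrays with higher hybridization controls or shifted markers are all of the second cycle, so the cycles differ in more than time in darkness.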

How the results depend on the processing

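Counts over all probe-sets moved with the settings. In place of 60, limma called 29 with median centring, 19 on the linear scale, 27 with a linear trend, 17 without the variance trend, 12 with circadian time as a factor, 17 with 12-h terms, 101 at a false discovery rate of 0.10 and 133 without the last 4 arrays, and 14 to 105 with an array left out (fewest without CT10 replicate 1, most without CT6 replicate 2). In place of 56, the Fourier list held 20 probe-sets with median centring, 33 with no filter, 97 with a filter at 50%, 151 and 27 at true-positive rates of 85% and 95%, and 8 to 144 with an array left out (fewest without CT18 replicate 1, most without CT6 replicate 2). The comparison of the cycles called 0 to 4, the latter without CT22 replicate 2. The causes were not tested.

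The adjusted p of csnk1db (limma), 0.039, was 0.101 with median centring, 0.053 with a linear trend, 0.105 without the variance trend, 0.514 with circadian time as a factor, 0.225 with 12-h terms, and 0.022 to 0.160 with an array left out. For the other 5 member probe-sets tested none of 123 settings gave a call (adjusted p 0.115 to 0.982 from limma). The false discovery rate of 0.10 is among these settings and changes only the threshold, not the fit. The log2 amplitude ratio of per2 was 0.20 on the brighter probe-set with median centring, and -1.90 and -2.17 on the dimmer one with no further normalization and with median centring, none of them at the smallest p. With an array left out, r ran from 0.56 to 0.81 for per2 and csnk1db, from 0.52 to 0.82 for csnk1da and csnk1db, and from 0.48 to 0.77 for the csnk1da probe-sets. No fitted value changed direction past a threshold in the alternatives run.

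With the daily cycle as a replicate block 53 probe-sets passed limma, csnk1db among them (adjusted p = 0.044). The block changed no call of a member.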
